A study of Mus musculus with 8 samples.

Results

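The cycling epithelial cells of mouse colon assembloids were 3149 cells, 2090 from assembloid replicate 1 and 1059 from assembloid replicate 2. They were selected on measured values, as cell barcodes with at least 500 genes, at least 2000 unique molecular identifiers (UMIs, each standing for 1 captured mRNA molecule) and at most 10% of UMIs from mitochondrial genes. Of these barcodes, they held at least 1 UMI of the epithelial gene Epcam, at most 1 UMI of the fibroblast collagens Col1a1 and Col1a2 together, and at least 2 UMIs of both Mki67 and Top2a. Of the 21745 and 6696 Epcam-positive cells that passed, 19795 and 6207 were within the collagen limit, 26002 in all, and the cycling cells were 2090 and 1059 of these and 2.73% of the 115502 barcodes of the series. The comparison class, called noncycling below, met the same criteria but held no UMI of Mki67 or Top2a, and counted 7411 and 2740 cells. The remaining cells, with UMIs of Mki67 or Top2a but too few for the selection, numbered 10294 and 2408 and entered neither class.

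The series compared colon assembloids, in which epithelium grows beside stroma, with epithelial organoids grown alone and with the colon itself, all from C57BL/6 mice. Assembloids were made by placing single organoids into Matrigel drops with cultured primary stromal cells of the colon, and were grown on an orbital shaker. Their medium held EGF, the TGF-beta receptor inhibitor A83-01, N-acetylcysteine, B27 and N2, and none of the niche factors surrogate Wnt, CHIR-99021, R-spondin 1 and noggin, whereas the organoids were grown with those factors. Tissue crypts were taken with EDTA from the colon. Live epithelial cells of all 3 sources were sorted by flow cytometry and captured with the 10x Genomics 3' v3 chemistry, in 2 libraries per source. The organoid libraries held 3377 and 2579 cells selected in the same way, and the tissue libraries 236 and 168. The cell filters passed 67.7% and 49.4% of the assembloid barcodes, 79.6% and 31.7% of the organoid ones and 20.1% and 16.3% of the tissue ones. A mitochondrial limit of 5% left 56 and 35 cycling tissue cells. The study's methods call the 2 libraries of a group biological replicates. The p-values rest on an estimate of the spread between replicates that all 3 sources share. Where classes were compared, a term per library removed differences between libraries, so the spread is that of the class difference.

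A dividing cell passes through G1, copies its DNA in S phase and divides after G2 in mitosis (M). Transcription follows this order: E2F factors turn on genes for DNA replication around the entry into S phase, and genes for mitosis follow later under the DREAM and B-MYB complexes. In the colonic crypt, division is confined to the lower part, where Wnt signals from the stroma act, and cells leave the cycle as they mature into absorptive colonocytes, mucus-secreting goblet cells or hormone-secreting enteroendocrine cells. Mki67, on chromosome 7, encodes the Ki-67 protein that coats mitotic chromosomes, and Top2a, on chromosome 11, encodes the topoisomerase that untangles copied DNA. Both transcripts peak in G2 and mitosis, so a selection on them weighs the late part of the cycle.

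The promoters below are those of Mki67, Top2a and the mitotic cyclin gene Ccnb1, which stand for the late genes, and of Mcm2, a subunit of the replicative helicase, which stands for the S phase genes. They come from RefSeq on GRCm38.p6, run from 250 bases before to 50 bases after the start of transcription, and all lie on the minus strand, at chr7:135716330-135716629, chr11:99024140-99024439, chr13:100786437-100786736 and chr6:88898731-88899030. Capitals mark TTTGAA, the core of the cell cycle homology region (CHR), the CCAAT box and the E2F motifs TTTGGCGC, TTTCGCGC and TTCCCGCC, on either strand.
Mki67 promoter: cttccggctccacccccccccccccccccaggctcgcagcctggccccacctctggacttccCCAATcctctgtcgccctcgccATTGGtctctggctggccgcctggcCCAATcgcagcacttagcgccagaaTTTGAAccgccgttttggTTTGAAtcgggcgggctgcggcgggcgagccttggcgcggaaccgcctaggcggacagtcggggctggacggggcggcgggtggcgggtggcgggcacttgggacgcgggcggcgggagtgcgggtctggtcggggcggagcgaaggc
Top2a promoter: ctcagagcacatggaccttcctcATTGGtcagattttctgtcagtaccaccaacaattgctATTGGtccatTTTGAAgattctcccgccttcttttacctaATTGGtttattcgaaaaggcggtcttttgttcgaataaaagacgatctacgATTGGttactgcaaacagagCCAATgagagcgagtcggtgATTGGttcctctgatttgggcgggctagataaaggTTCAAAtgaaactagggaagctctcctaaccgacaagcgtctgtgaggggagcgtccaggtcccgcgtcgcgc
Ccnb1 promoter: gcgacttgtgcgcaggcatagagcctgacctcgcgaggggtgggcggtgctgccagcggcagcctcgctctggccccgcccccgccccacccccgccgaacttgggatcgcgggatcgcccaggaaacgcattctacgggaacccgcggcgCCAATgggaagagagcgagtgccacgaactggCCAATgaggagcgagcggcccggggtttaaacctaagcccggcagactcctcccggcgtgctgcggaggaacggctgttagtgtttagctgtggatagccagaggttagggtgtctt
Mcm2 promoter: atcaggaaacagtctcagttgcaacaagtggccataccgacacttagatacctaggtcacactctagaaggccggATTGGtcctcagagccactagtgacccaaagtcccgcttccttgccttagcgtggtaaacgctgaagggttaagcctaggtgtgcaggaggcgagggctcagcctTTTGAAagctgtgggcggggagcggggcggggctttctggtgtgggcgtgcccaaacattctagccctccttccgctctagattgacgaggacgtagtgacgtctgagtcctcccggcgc

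Mki67 held 2 CHR and 3 CCAAT motifs in this window and Top2a held 2 and 6, while Ccnb1 held 2 CCAAT motifs and no TTTGAA, the only form of the CHR that was searched for. Mcm2 held 1 of each, and none of the promoters shown held an E2F motif. In holding both a CHR and a CCAAT box Mcm2 was unlike most S phase genes, of which 2 of 23 did. Of the 35 genes on the list for G2 and M phase, 30 had a promoter in the table, and 20 of these (66.7%) held a CHR, against 3 of 23 (13.0%) for S phase genes and 20.2% of the 27025 genes in the table. A CHR together with a CCAAT box was found for 16 of 30 late genes (53.3%), 2 of 23 S phase genes and 7.97% of all genes. The order was the other way for the E2F motifs, with 11 of 23 S phase genes (47.8%), 1 of 30 late genes and 3.39% of all genes. Both lists thus differed in these letters as well as in their levels below. A match describes the sequence and does not show that a factor binds there.

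The cells carried the epithelial identity that the sort aimed at. With every cell thinned to 2000 UMIs, the keratin gene Krt8 was found in 93.7% and 93.4% of the cycling assembloid cells and the E-cadherin gene Cdh1 in 55.6% and 59.4%. Of the selecting genes, whose presence the selection had to give, Mki67 was then found in 48.9% and 44.5% and Top2a in 69.5% and 61.5%. Cells of the same libraries without Epcam and with at least 5 collagen UMIs (212 and 124 cells), which should be fibroblasts, gave the background, with Mki67 in 3.77% and 2.42%, Top2a in 15.6% and 7.26% and Krt8 in 42.9% and 39.5%. Single cells among them held up to 8 and 7 UMIs of Mki67 and 31 and 16 of Top2a at full depth. For these genes the shares need not be free RNA, which was not tested. Before thinning, the median was 14915 and 21831 UMIs in cycling assembloid cells, 3798 and 13624 in noncycling ones and 6342 and 10743 in the collagen-high cells. The cycling cells of organoids had medians of 40072 and 21544 UMIs and those of tissue 22824 and 19920. Since a selection by raw UMIs takes deeper cells more readily, the fits were repeated with cells of both classes matched in depth and with thinned cells. For the thinned fits the classes were chosen anew at 2000 UMIs, by at least 1 UMI of both selecting genes or none. The noncycling class then held 11795 and 4642 assembloid cells, 2149 and 1846 organoid cells and 2063 and 2296 tissue cells. Such fits thus differ from the main ones in their cells as well as in depth. Shares of cells with a UMI of a gene kept the classes of full depth. The median mitochondrial share was 2.68% and 4.12% in cycling assembloid cells, 2.09% and 4.83% in organoids and 7.097% and 7.60% in tissue. Replicates of a group differed far beyond counting error, and at most 0.98% of the barcodes of a library were shared with another, with 1 barcode of a cycling cell in both assembloid libraries and at most 4 between any other pair.

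RNA of stromal cells was present among the cycling assembloid cells. At least 1 UMI of Ptprc, Lyz2, Col3a1 or Dcn, which mark blood cells, macrophages and fibroblasts, was held by 42.9% and 50.2% of them at full depth, against 0.116% to 1.27% in the organoid and tissue libraries. After thinning, Lyz2 was found in 4.11% and 6.89% of the cycling cells and in 5.19% and 4.03% of the collagen-high cells, lower in the first library and higher in the second, with exact 95% binomial intervals that overlapped in both. The 11 fibroblast genes summed to 0.956 and 0.631 UMIs per 10000 in cycling cells, 2.62 and 0.939 in noncycling cells, and 0.00881 to 0.126 in the cycling cells of the other groups. The 10 macrophage genes summed to 1.55 and 3.56, 2.90 and 5.54, and 0.0342 to 0.174 in the same order. All 10 macrophage genes and all 11 fibroblast genes had UMIs in the cycling cells of both assembloid libraries, while C1qa and C1qb were at 0 in the cycling cells of every organoid and tissue library. With every cell that held a UMI of Ptprc, Lyz2, Col3a1 or Dcn left out, 5953 genes were called between the classes of assembloids in place of 6384, 6099 in place of 7069 against tissue and 6098 in place of 7664 against organoids.

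At full depth the selection took 10.6% (95% exact binomial interval 10.1 to 11) and 17.1% (16.1 to 18) of the Epcam-positive assembloid cells within the collagen limit, 71.0% and 56.7% of the organoid cells, and 9.69% and 6.11% of the tissue cells. Assembloids lay between organoids and tissue, although the interval of assembloid replicate 1 overlapped that of tissue replicate 1 (8.54 to 10.9). With at least 4 UMIs of both genes asked for, the assembloid libraries were at 4.25% and 10.3% and the tissue libraries at 6.77% and 4.04%, so that they overlapped. These shares depend on depth. With every cell thinned to 2000 UMIs and at least 1 UMI of both genes asked for, they were 3.94% and 3.02% in tissue, 7.33% and 6.20% in assembloids and 17.1% and 21.2% in organoids, so that assembloids lay between the others without overlap. As these shares come from the selection itself, they are given as a description. Intervals cover counting error only, and an exact permutation test of 2 libraries against 2 could not give a p below 0.333.

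Cells just inside the selection had lower phase gene levels than cells deep inside it. The genes of G2 and M phase other than Mki67 and Top2a reached 51.5 and 50.01 UMIs per 10000 where both selecting genes had at least 3 UMIs, 26.5 and 14.5 where both had exactly 2, and 20.96 and 12.1 in cells just outside with 1 UMI of each. S phase genes reached 10.1 and 10.5, 7.13 and 8.51, and 6.71 and 5.03 in the same order. The edge of the class was therefore gradual, with 153 and 39 cells at exactly 2 and 2 UMIs and 931 and 188 at 1 and 1.

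Cycling assembloid cells held more of the mitotic genes than noncycling cells did, as the selection had to give. Levels are in counts per 1000000 (CPM) of the UMIs summed over a library and class, with library sizes scaled by the TMM method. Ccnb1, the cyclin of mitotic entry, stood at 58.7 and 61.5 CPM in cycling cells of assembloid replicates 1 and 2 against 15.7 and 4.62 in noncycling cells. Plk1, a mitotic kinase, stood at 43.8 and 40.6 against 7.53 and 2.34, and Ccna2, the cyclin of S and G2 phase, at 98.6 and 99.4 against 21.4 and 6.39. The medians of the log2 differences were 2.91 for the 35 late genes, 1.91 for the 28 S phase genes and 1.83 for the 62 clustered histone genes, against 0.01 for all 17333 genes. Among the largest differences of late genes were those of Nusap1 (247.6 and 126.8 against 33.3 and 4.44 CPM) and Kif2c (18.9 and 17.3 against 2.43 and 0.63), both of the mitotic spindle. Noncycling cells of assembloids held 13.1 and 8.05 UMIs of late genes per 10000, those of tissue 6.004 and 7.46 and those of organoids 13.2 and 17.7, so the noncycling classes were not free of them.

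Pcna stood apart among the S phase genes. It encodes the sliding clamp of DNA polymerases and is also a p53 target. In assembloids it was at 121.1 and 122.9 CPM in cycling cells and at 114.0 and 94.4 in noncycling cells, the smallest difference of the S phase list. In tissue it was at 117.6 and 144.0 against 38.9 and 46.7, and in organoids at 217.7 and 185.7 against 74.8 and 82.0. Noncycling assembloid cells thus held more Pcna than the noncycling cells of every other library. Mcm2 separated the classes in assembloids, with 20.2 and 22.3 against 8.46 and 4.77 CPM, and so did Tyms, the thymidylate synthase, with 51.1 and 50.1 against 19.9 and 11.9.

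The balance between the phases lay further towards the late genes than in organoids and tissue, in noncycling cells as well as in cycling cells. The S phase genes summed to 9.80 and 10.6 UMIs per 10000 in cycling assembloid cells, below the 26.2 and 24.2 of organoids and the 15.4 and 18.8 of tissue. The late genes summed to 47.3 and 45.5, near the 50.8 and 46.6 of tissue and below the 60.3 and 54.8 of organoids. Late UMIs per S UMI were 4.825 and 4.307 in cycling assembloid cells, 3.294 and 2.481 in tissue and 2.301 and 2.27 in organoids. In noncycling cells they were 3.248 and 3.05, 2.274 and 2.209, and 1.488 and 1.544 in the same order. The lean was therefore not particular to the cycling class. At 2000 UMIs a cell, 4.55% (3.69 to 5.53) and 7.65% (6.12 to 9.42) of the cycling assembloid cells had more S than late UMIs, against 17.4% and 16.1% in organoids and 17.8% and 29.2% in tissue. No assembloid library overlapped those of the other groups. Another 10.2% and 14.0% of the assembloid cells lay within 1 UMI of an equal number. Late UMIs with no S UMI were seen in 20.9% and 17.4% of them, 2.22% and 3.37% of the organoid cells and 18.2% and 11.9% of the tissue cells.

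**Figure D1:**
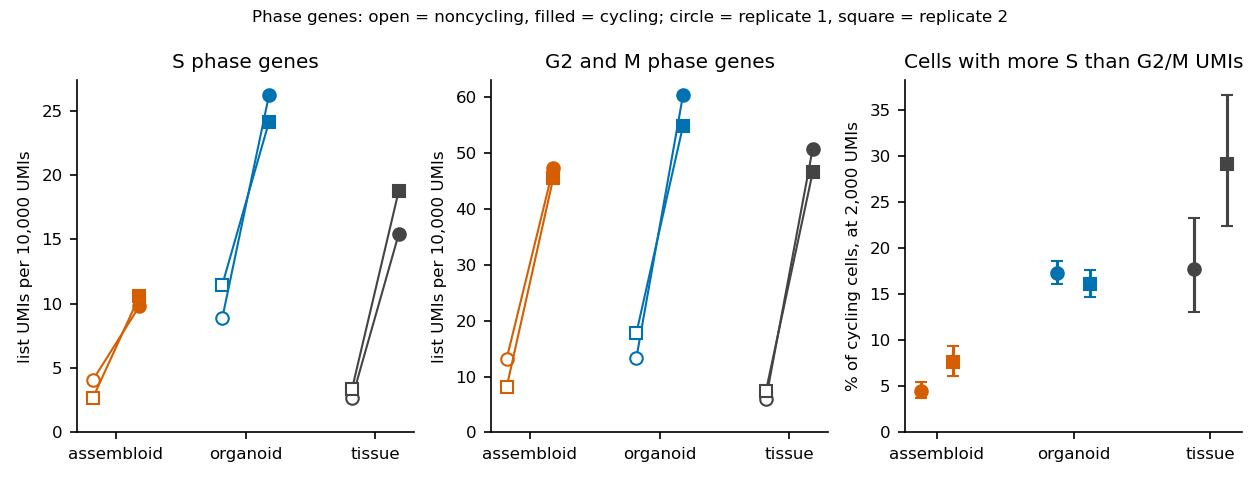
Summed UMIs of the S phase genes (left) and the genes of G2 and M phase without Mki67 and Top2a (middle) per 10000 UMIs in each library, and the percentage of cycling cells with more S than G2/M UMIs after thinning to 2000 UMIs (right, bars are 95% exact binomial intervals). Cycling assembloid cells sit at 9.80 and 10.6 on the left, below every organoid and tissue library, and at 47.3 and 45.5 in the middle, beside 50.8 and 46.6 for tissue.

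Tested over all genes with edgeR, cycling assembloid cells differed from cycling tissue cells in 3827 of 16470 genes that were higher (23.2%) and 3242 that were lower (19.7%). Against organoids 4209 were higher (25.6%) and 3455 lower (21%), and scaling by DESeq2 moved the median of all genes by 0.13. Leaving out tissue replicate 1 or 2 left 3288 and 3737 calls against tissue, and thinned cells gave 2061 and 2579 calls against tissue and organoids. Of the 28 S phase genes, 12 were lower and 2 higher than in tissue, with a median log2 fold change of -0.49 beside 0.02 for all genes, and 26 were lower and none higher than in organoids, with a median of -1.43 beside -0.05. Thinned cells gave 4 lower and 2 higher calls against tissue (median -0.30) and 20 lower and 1 higher against organoids (median -1.22). Fen1, which trims Okazaki fragments, was at 6.01 and 5.75 CPM in assembloids, 20.8 and 31.6 in tissue and 51.0 and 33.8 in organoids, so that no groups overlapped. Its log2 fold change was -2.14 ± 0.29 (SE, adjusted p = 0.000191) against tissue and -2.85 ± 0.29 (adjusted p = 2.22e-05) against organoids. Ung, the uracil glycosylase that clears uracil from new DNA, was at 2.99 and 3.998 CPM against 12.7 and 16.5 in tissue and 29.5 and 17.8 in organoids. Prim1, the primase subunit, went the other way against tissue, by 0.90 ± 0.25 on the log2 scale (adjusted p = 0.0128), and was not called without assembloid replicate 1 (adjusted p = 0.113), tissue replicate 1 (adjusted p = 0.0927) or tissue replicate 2 (adjusted p = 0.106). Mcm2 was at 20.2 and 22.8 CPM in assembloids, 23.6 and 30.3 in tissue and 53.6 and 49.1 in organoids, and passed the test against organoids alone (-1.26 ± 0.21, adjusted p = 0.000705), where the thinned cells did not call it.

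Of the 35 late genes, 5 were higher and 1 lower than in tissue (median 0.22) and 1 higher and 6 lower than in organoids (median -0.25). Of all genes 23.2% were higher and 19.7% lower than in tissue, and 25.6% and 21% than in organoids. In this fit the late genes were thus called less often than genes at large. Against tissue 12 late genes were higher and 1 lower by DESeq2, and 1 was higher and 1 lower with thinned cells. Against organoids 2 were higher and 2 lower with the classes matched in depth within a library, where the median turned to 0.08, and none was higher and 3 were lower with thinned cells. Bub1, a kinase of the spindle checkpoint, was at 61.2 and 66.5 CPM in assembloids, 27.2 and 26.0 in tissue and 46.7 and 39.4 in organoids. It was higher than in both, by 1.26 ± 0.21 (adjusted p = 0.000846) and 0.57 ± 0.20 (adjusted p = 0.0384). The call against organoids was lost without any single library but organoid replicate 1, at an adjusted p of 0.0732 to 0.182, and with thinned cells (adjusted p = 0.113). Kif20b, a kinesin of cytokinesis, was the gene lower than in tissue, with 44.7 and 47.6 against 77.9 and 72.9 CPM. Ccnb1 and Ccna2 did not pass the test against tissue, with log2 fold changes of 0.21 ± 0.22 and 0.49 ± 0.24. Ccna2 was called higher by DESeq2 (0.59, adjusted p = 0.0379), and stood at 0.48 and 0.56 without organoid replicate 1 or 2. With thinned cells the median of the late genes against tissue was -0.17. Mki67, which took part in the selection, was at 2.78 and 2.65 UMIs per 10000 in assembloids, 5.06 and 4.63 in tissue and 2.68 and 3.28 in organoids, and Top2a at 6.24 and 4.88, 4.92 and 4.20, and 4.73 and 5.50.

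Most mRNAs of the clustered histone genes lack a poly(A) tail, so that a 3' method sees them in part. Of 62 tested, 7 were higher and 5 lower than in tissue, and 9 higher and 18 lower than in organoids. Of all genes 23.2% were higher and 19.7% lower than in tissue, and 25.6% and 21% than in organoids. Against tissue the histone genes were thus called less often than genes at large. Hist1h1b, a linker histone of S phase, was at 45.9 and 25.7 CPM in assembloids, 80.9 and 63.0 in tissue and 514.1 and 197.1 in organoids, and was lower than in organoids (-3.31 ± 0.44, adjusted p = 0.00015) and not called against tissue (-1.01 ± 0.42, adjusted p = 0.0705). It was called against tissue with thinned cells (-1.68, adjusted p = 0.00289), cells matched in depth (-1.17, adjusted p = 0.04) and a mitochondrial limit of 5% (-1.83, adjusted p = 0.00223). The same held with the replicate number as a block (-1.07, adjusted p = 0.0103) and with no filter on low counts (-1.01, adjusted p = 0.002). Without assembloid replicate 1 or organoid replicate 1 or 2 the value was -1.48, -1.02 and -0.94. Hist1h4i was at 377.3 and 309.3 CPM in assembloids, above the 27.7 and 25.3 of tissue and the 45.9 and 29.7 of organoids (3.69 ± 0.29 and 3.18 ± 0.28, adjusted p = 5.29e-06 and 9.26e-06). Its sequence is close to that of other H4 genes, so reads may be shared among them.

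Genes of the passage through G1 were compared next. Of 17 genes for G1 cyclins, their kinases, E2F and Rb proteins, 9 were lower and 1 higher than in tissue (median -0.62), with 7 not called, and 14 lower and 1 higher than in organoids (median -1.30). Thinned cells gave 2 lower calls against tissue and 8 against organoids. Ccnd1, the cyclin that Wnt and growth factor signals induce, was at 60.3 and 62.5 CPM in assembloids, 69.8 and 84.7 in tissue and 411.4 and 306.5 in organoids. It was lower than in organoids by 2.55 on the log2 scale (-2.55 ± 0.26, adjusted p = 2.33e-05) and did not pass against tissue (-0.33 ± 0.25, adjusted p = 0.305). Ccne2, the cyclin of S phase entry, was at 8.62 and 5.51 CPM against 18.4 and 23.04 in tissue (-1.54 ± 0.29, adjusted p = 0.00157), and was not called with thinned cells (-1.04, adjusted p = 0.364). E2f7, a late repressor of E2F targets, was at 7.15 and 5.79 against 16.9 and 20.1 (-1.51 ± 0.25, adjusted p = 0.000649). Rb1, which holds E2F factors back, was the gene that was higher than in both (0.66 ± 0.21 and 1.30 ± 0.21, adjusted p = 0.0264 and 0.000483). Its call against tissue was lost without assembloid replicate 1, tissue replicate 1 or tissue replicate 2, at an adjusted p of 0.136 to 0.147, and with thinned cells (adjusted p = 0.103).

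Cdkn1a, a brake on the cycle, encodes the CDK inhibitor p21 and is a main p53 target. It was at 314.7 and 271.1 CPM in cycling assembloid cells, 37.4 and 44.9 in tissue and 70.4 and 54.6 in organoids, with no overlap. The log2 fold changes were 2.83 ± 0.26 (adjusted p = 1.19e-05) and 2.23 ± 0.25 (adjusted p = 4.44e-05). Noncycling assembloid cells held still more of it, 511.6 and 431.4 CPM against 314.5 and 264.8 on the scale of that fit (-0.70 ± 0.09, adjusted p = 0.000533). Among the cycling assembloid cells, those with more S than late UMIs had 2.40 and 2.17 UMIs of Cdkn1a per 10000 and those with more late UMIs 2.62 and 2.65. Cdkn2b, which encodes the CDK4 and CDK6 inhibitor p15, was at 53.1 and 54.7 CPM against 7.19 and 5.65 in tissue and 10.3 and 5.95 in organoids (3.05 ± 0.31 and 2.72 ± 0.28). Cdkn1b, for p27, was at 71.2 and 67.2 against 38.5 and 37.5, and 33.2 and 23.2. Of the 10 CDK inhibitor and antiproliferative genes, 8 were higher and 2 lower than in tissue (median 0.98), and 7 higher and none lower than in organoids (median 1.60). Thinned cells gave 3 higher and 1 lower against tissue. The 2 lower ones were Btg2 (-1.28 ± 0.22) and Cdkn2c (-1.27 ± 0.28), the second not called without tissue replicate 1 (adjusted p = 0.0634) or with thinned cells (adjusted p = 0.28).

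Of 14 p53 targets, 9 were higher and 2 lower than in tissue (median 1.23) and 7 higher and 3 lower than in organoids (median 0.59). Thinned cells gave 4 higher and 1 lower against tissue and 7 higher and none lower against organoids. Mdm2, the ligase that degrades p53, was at 97.1 and 113.3 CPM in assembloids against 26.8 and 23.7 in tissue (2.06 ± 0.23, adjusted p = 4.57e-05). Plk2 was at 68.3 and 68.4 against 16.0 and 12.7 in tissue and 12.8 and 12.6 in organoids. Pmaip1, which encodes the BH3 protein Noxa, was at 149.5 and 119.6 against 11 and 10.1 in organoids (3.67 ± 0.23, adjusted p = 1.05e-06). The lower ones against tissue were Trp53inp1 (-1.53 ± 0.27, and not called with thinned cells at an adjusted p of 0.059) and Sesn1 (-1.44 ± 0.25). Trp53cor1, a long noncoding RNA next to Cdkn1a that p53 induces, was not on the list and was named for its large rise. It was at 442.6 and 177.4 CPM against 0.13 and 1.36 in tissue and 2.28 and 3.34 in organoids. As it met the limit on mean level only through the assembloids, it is given as a description and adds nothing to the counts of the list.

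Of the stem cell and Wnt target genes of the crypt base, Lgr5, a receptor for R-spondins that marks crypt stem cells, was at 13.7 and 16.0 CPM in cycling assembloid cells, 67.4 and 56.7 in tissue and 150.2 and 283.8 in organoids. The groups did not overlap, and the log2 fold changes were -2.06 ± 0.31 (adjusted p = 0.000375) and -3.87 ± 0.33 (adjusted p = 6.79e-06). At 2000 UMIs, 2.15% and 3.02% of the assembloid cells held a UMI of Lgr5, against 15.7% and 10.1% in tissue and 19.3% and 39.6% in organoids, and 0 of 212 and 0 of 124 collagen-high cells did, which allows up to 1.73% and 2.93%. Axin2, the classic feedback target of Wnt signalling, was at 12.6 and 9.75 CPM against 36.9 and 27.6 in tissue and 92.1 and 95.1 in organoids (-1.53 ± 0.24 and -3.06 ± 0.24). Ascl2, the stem cell transcription factor, was at 2.99 and 2.53 against 11.2 and 11.1, and 75.1 and 50.4. Smoc2, a matricellular protein of stem cells, showed the largest fall of the list against tissue (3.02 and 3.43 against 66.4 and 61.7 CPM, -4.31 ± 0.24). Of the 18 tested genes, 10 were lower and 3 higher than in tissue (median -0.77) and 13 lower and none higher than in organoids (median -1.89). Thinned cells gave 7 lower and 2 higher, and 8 lower and none higher. The higher ones were Lef1 and Tcf7 (2.47 ± 0.36), both Wnt transcription factors, and the membrane protein gene Prom1 (1.94 ± 0.26).

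Within the assembloids, Lgr5 still marked the cycling class. It was at 13.7 and 15.7 CPM in cycling against 4.51 and 5.55 in noncycling cells (1.55 ± 0.10, adjusted p = 4.09e-05). Cd44, an adhesion receptor and Wnt target, was at 62.0 and 63.0 against 40.7 and 45.9 (0.53 ± 0.08, adjusted p = 0.00102). Axin2 did not pass (0.28 ± 0.11, adjusted p = 0.0755), nor did Myc (-0.15 ± 0.12, adjusted p = 0.344). Axin2 was called higher with the stricter selection (0.45, adjusted p = 0.0312) and without the collagen limit on noncycling cells (0.40, adjusted p = 0.0203), and Myc lower with cells matched in depth (-0.64, adjusted p = 0.0143). In this comparison 3469 of 17333 genes were higher in cycling cells (20%) and 2915 lower (16.8%), with 2194 calls in thinned cells, and 10 of the 18 crypt base genes were higher and 1, Prom1, lower.

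Of 9 genes of the Notch pathway, which keeps progenitors from the secretory fate, 5 were lower and 1 higher than in tissue (median -1.94) and 4 lower and 1 higher than in organoids. Thinned cells gave 2 lower calls in both comparisons and 1 higher call against organoids. Lfng, which adds sugars to Notch receptors, was at 1.88 and 2.53 CPM against 14.2 and 15.6 in tissue and 13.7 and 11.2 in organoids (-2.76 ± 0.30 and -2.50 ± 0.29). Notch1 was at 6.27 and 7.51 against 28.6 and 23.9, and 17.96 and 21.2. Hes1, the main target gene, did not pass either test (-0.57 ± 0.32 and 0.29 ± 0.31), and its levels of 164.5 and 95.7 CPM overlapped those of 243.2 and 143.6 in tissue. At a mitochondrial limit of 5% it was called lower than in tissue (-0.77, adjusted p = 0.0444). Id1, a target of BMP signals, was at 76.8 and 80.4 against 230.0 and 184.1 in tissue and 313.2 and 178.3 in organoids (-1.40 ± 0.29 and -1.65 ± 0.29, adjusted p = 0.0031 and 0.000926), and was not called against tissue without tissue replicate 1 (adjusted p = 0.0857).

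Genes of mature colonocytes were lower in cycling than in noncycling assembloid cells, and most were higher than in the cycling cells of organoids. At 2000 UMIs the 20 genes, Car1 included, summed to a mean of 4.51 and 5.16 UMIs per cycling assembloid cell and 1.17 and 0.831 per collagen-high cell. Car1, the carbonic anhydrase of the colonic surface, was at 605.2 and 790.9 CPM in cycling against 2658 and 3570 in noncycling assembloid cells (-2.15 ± 0.15, adjusted p = 5.38e-05). Cycling cells of tissue had 27.7 and 43.1 CPM and those of organoids 67.8 and 22.8, beside 605.5 and 809.8 in assembloids on the scale of that fit. The log2 fold changes were 4.33 ± 0.49 (adjusted p = 5.51e-05) and 3.96 ± 0.48 (adjusted p = 7.54e-05). At 2000 UMIs a UMI of Car1 was found in 43.9% (41.7 to 46.0) and 39.8% (36.8 to 42.8) of the cycling assembloid cells, 71.1% and 58.9% of the noncycling cells and 20.8% and 16.1% of the collagen-high cells. The cycling share was thus above the background of its own library, and above the 4.11% to 9.56% of the cycling cells elsewhere. Cells with more S than late UMIs had 5.49 and 12.1 UMIs of Car1 per 10000, and those with more late UMIs 4.96 and 7.51.

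Krt20, a keratin of mature surface cells, was at 44.2 and 33.7 CPM against 9.32 and 10.6 in tissue (1.98 ± 0.27, adjusted p = 0.0002) and 0.07 and 0.12 in organoids. At 2000 UMIs it was found in 6.51% and 4.25% of the cycling cells and 4.25% and 1.61% of the collagen-high cells, with overlapping intervals, and in 20.5% and 19.3% of the noncycling cells. All 20 colonocyte genes were lower in cycling than in noncycling assembloid cells (median -2.22), among them Clca4a (-2.66 ± 0.20) and the water channel Aqp8 (-2.62 ± 0.12). Against cycling tissue cells 6 were higher and 7 lower (median 0.00), and against organoids 18 were higher and 1 lower (median 3.05). Of all genes 23.2% were higher and 19.7% lower than in tissue, and 25.6% and 21% than in organoids. Guca2a, which encodes guanylin, was lower than in tissue (42.9 and 38.6 against 326.4 and 380.8 CPM, -3.12 ± 0.27). Emp1, a membrane protein, was higher (127.4 and 159.2 against 6.39 and 10.6 CPM, 4.11 ± 0.37). Slc26a3, the chloride and bicarbonate exchanger, was at 6.16 and 5.92 CPM against 20.5 and 21.9 in tissue (-1.81 ± 0.28, and not called at a mitochondrial limit of 5% at an adjusted p of 0.078) and 0.50 and 0.64 in organoids (3.41 ± 0.30).

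Goblet cell genes were low against tissue. Muc2, the gel-forming mucin, was at 84.8 and 205.2 CPM in cycling assembloid cells, 2675 and 5676 in tissue and 3.88 and 19.04 in organoids, with log2 fold changes of -4.85 ± 0.75 (adjusted p = 0.000458) and 3.67 ± 0.71 (adjusted p = 0.00156). Of 15 genes, 14 were lower than in tissue and none higher (median -3.13), and 11 were higher and 1 lower than in organoids (median 2.30). Atoh1, the transcription factor that sets the secretory fate, was lower than in both, at 0.59 and 0.57 CPM against 32.5 and 48.6, and 6.22 and 4.59. Klk1 fell as far against tissue (9.18 and 13.9 against 756.8 and 837.2 CPM, -6.11 ± 0.34). Zg16, a lectin of mucus, was at 84.5 and 61.7 against 346.6 and 577.9, and 0.77 and 0.80. At full depth 97.5% and 99.4% of the cycling tissue cells held a UMI of Muc2, and 100% and 99.4% one of Zg16. The part of free RNA in the tissue values was not tested, since the tissue libraries held no collagen-high cells. At 2000 UMIs Muc2 was found in 8.85% and 12.8% of the cycling assembloid cells and in 4.72% and 9.68% of the collagen-high cells, with overlapping intervals, and in 15.7% and 17.1% of the noncycling cells. Of the enteroendocrine genes, 8 of 13 were lower in cycling than noncycling assembloid cells, among them the hormone gene Pyy (2.62 and 19.2 against 12.4 and 158.9 CPM, -2.82 ± 0.20) and Chgb (-2.86 ± 0.65). Pyy was not called with cells matched in depth (-1.46, adjusted p = 0.0886) or at a mitochondrial limit of 5% (-0.84, adjusted p = 0.186), and Chgb not with DESeq2 (adjusted p = 0.0832) or a looser selection (-1.79, adjusted p = 0.0704). DESeq2 called 5 of the 13 genes lower and cells matched in depth 4.

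**Figure D2:**
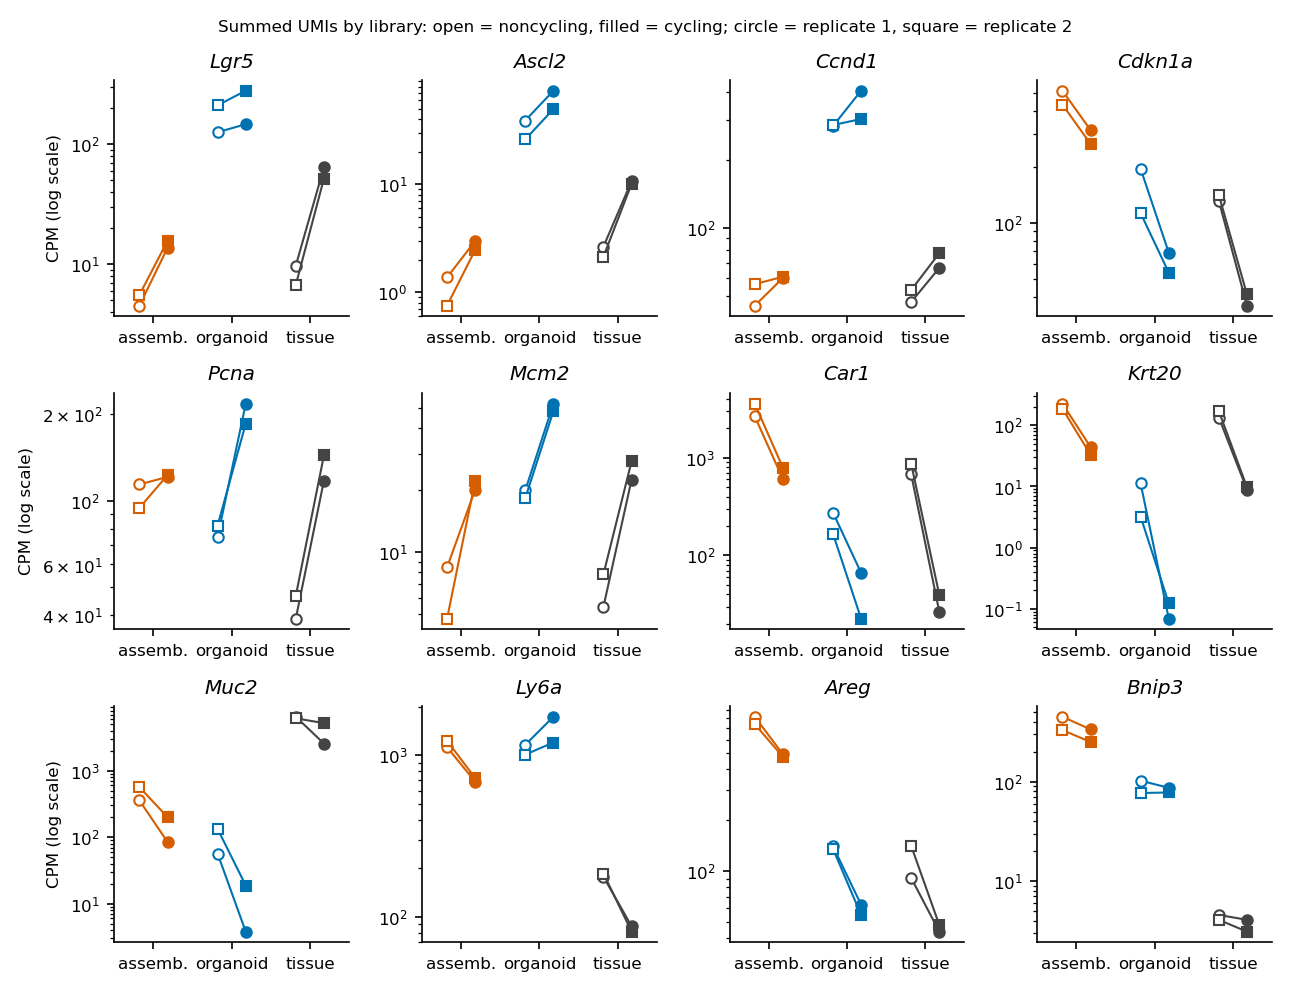
Levels of 12 genes in CPM (log axis) in noncycling (open) and cycling (filled) cells of each library, with circles for replicate 1 and squares for replicate 2. Cycling assembloid cells lie above the cycling cells of tissue and organoids for Cdkn1a, Car1, Krt20, Areg and Bnip3 and below them for Lgr5 and Ascl2, and Pcna differs less between the classes in assembloids than elsewhere.

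**Figure D3:**
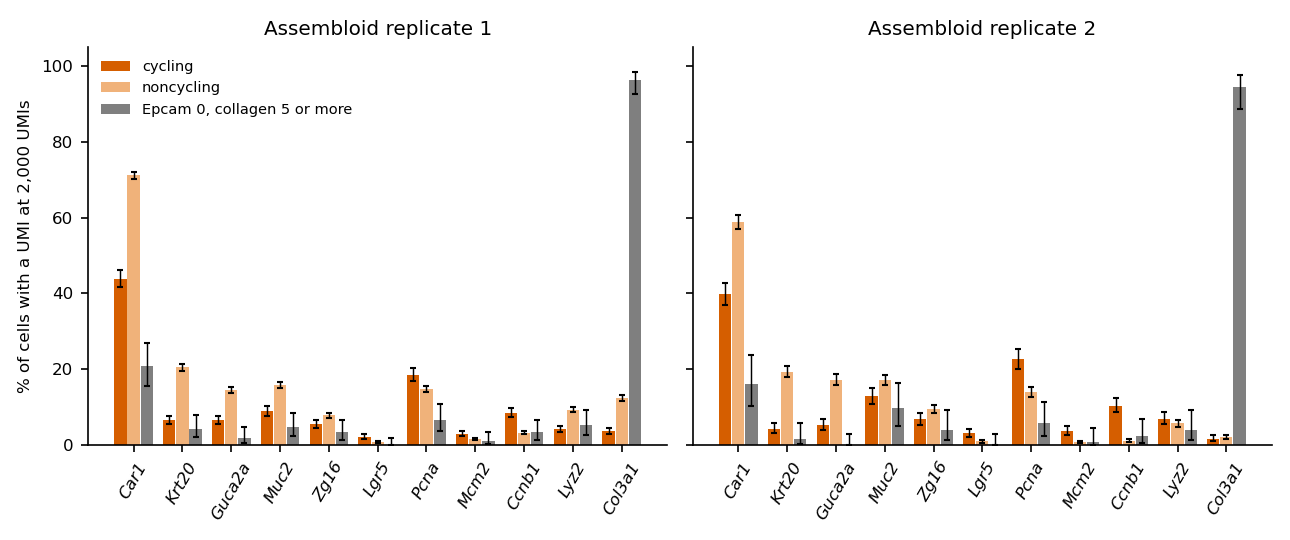
Percentage of assembloid cells with at least 1 UMI of each gene after thinning to 2000 UMIs, in cycling cells, noncycling cells and cells with no Epcam and at least 5 collagen UMIs, with 95% exact binomial intervals. The cycling bars for Car1 (43.9% and 39.8%) stand above those of the collagen-high cells (20.8% and 16.1%), while the bars for Krt20, Muc2, Zg16 and Lyz2 lie within or near their intervals.

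Genes for growth rose with the cycle and stayed below the organoids. Of 22 Myc targets and genes of ribosome biogenesis, 20 were higher in cycling than noncycling assembloid cells and none lower (median 0.94). Mybbp1a and Nolc1, both nucleolar, led with 1.46 ± 0.09 and 1.35 ± 0.10. Npm1, a nucleolar chaperone, was at 1730 and 1766 against 1081 and 1030 CPM (0.73 ± 0.06, adjusted p = 7.68e-05). With thinned cells 8 of the 22 were called, all higher (median 0.42), and Npm1 was not (0.09, adjusted p = 0.66). All 18 genes of nucleotide and one-carbon synthesis were higher (median 0.91), as were all 16 of chromatin and chromosome structure (median 1.52). Of the latter, the condensin gene Smc2 rose by 3.04 ± 0.34. The chromosome genes are close to the selecting genes, so the selection favoured their rise, which is given as a description. With thinned cells 7 of the 18 (median 0.54) and 13 of the 16 (median 0.88) were called, all higher. Against organoids 20 of the 22 growth genes were lower and none higher (median -1.43; 13 lower with thinned cells and 12 with the classes matched in depth), with Nop16 at 11.8 and 11.8 CPM against 92.9 and 50.3. Against tissue 6 of the 22 were higher and 1 lower (median 0.33), and of the 18 synthesis genes 6 were higher and 3 lower. Of all genes 23.2% were higher and 19.7% lower than in tissue, so both higher counts lay near the share of all genes. Single synthesis genes rose against tissue, among them Psat1 of serine synthesis (117.9 and 98.4 against 14.4 and 12.4 CPM, 3.004 ± 0.25) and the mitochondrial folate enzyme Mthfd2 (2.63 ± 0.25). Against organoids 12 of the 18 were lower (6 with thinned cells and 8 with the classes matched in depth), beside 21% of all genes.

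Genes of hypoxia and glycolysis were high in cycling assembloid cells. All 19 were higher than in tissue (median 2.60), and 10 were higher and none lower than in organoids (median 0.99). Bnip3, a mitophagy receptor that hypoxia-inducible factors induce, was at 334.4 and 256.1 CPM against 4.26 and 3.39 in tissue and 88.2 and 78.7 in organoids (6.25 ± 0.32 and 1.82 ± 0.24, adjusted p = 5.43e-07 and 0.000137). Adm, the peptide adrenomedullin, was at 208.4 and 165.7 against 0.80 and 1.58, and 1.88 and 4.03 (7.40 ± 0.49 and 6.002 ± 0.39). Its fold against tissue rests on few tissue UMIs and ranged from 6.99 to 11.2 under the alternatives, with the highest value from thinned cells. Ldha, lactate dehydrogenase A, was at 1531 and 1467 against 280.2 and 335.1 in tissue (2.29 ± 0.30), and did not pass against the 1772 and 1406 of organoids (-0.08 ± 0.29, adjusted p = 0.829). Within assembloids 16 of the 19 were lower in cycling than noncycling cells and none higher (median -0.43), with Ndrg1 at 456.1 and 421.8 against 779.6 and 788.5 CPM. Collagen-high cells of the same libraries also held these genes, with Bnip3 in 57.5% and 57.3% of them at 2000 UMIs against 39.0% and 35.0% of the cycling cells.

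Regenerative and fetal-like genes were high against cycling tissue cells, with 14 of 15 higher and none lower (median 1.83). Their sum was 81.04 and 69.6 UMIs per 10000 in cycling assembloid cells and 37.3 and 36.0 in cycling tissue cells. Noncycling tissue cells held 85.2 and 83.5, so the list was not above the level of noncycling tissue. Against organoids 5 were higher and 5 lower, beside 25.6% and 21% of all genes. Against organoids 8 were higher and 5 lower by DESeq2, 6 higher and 3 lower with thinned cells, and 8 higher and 3 lower with the classes matched in depth. Sprr1a, a cornified envelope protein of repairing epithelium, was at 260.0 and 292.4 CPM against 0.40 and 0.45 in tissue and 2.79 and 5.56 in organoids. The log2 fold change was 6.06 ± 0.36 against organoids, and none is given against tissue, where few UMIs were counted and the alternatives ranged from 6.54 to 16.4. Ly6a, which encodes Sca-1, was at 687.3 and 739.7 against 91.6 and 88.8, and 1765 and 1215 (2.98 ± 0.31 and -1.06 ± 0.29, adjusted p = 3.04e-05 and 0.011), the second of which was lost without assembloid replicate 1 (adjusted p = 0.0638), with thinned cells (adjusted p = 0.0705) and with the classes matched in depth within a library (-0.61, adjusted p = 0.16). Areg, the EGF receptor ligand amphiregulin, was at 491.1 and 485.1 CPM against 45.5 and 52.2, and 64.3 and 55.5 (3.32 ± 0.26 and 3.03 ± 0.25). Of 11 YAP and TEAD targets, 7 were higher and 2 lower than in tissue (median 1.70), and 3 higher and 4 lower than in organoids (median -0.04, which was above 0 by DESeq2 and with thinned or depth-matched cells). Those higher than in tissue held Ccn2 (19.5 and 13.6 against 0.40 and 0.68 CPM) and F3, which encodes tissue factor (216.1 and 189.9 against 30.1 and 33.4 CPM, 2.68 ± 0.23). In cycling assembloid cells Ly6a, Areg and F3 were lower than in noncycling cells, by -0.74 ± 0.08, -0.69 ± 0.10 and -1.09 ± 0.07.

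Immediate early and heat shock genes, which also answer to dissociation, were above the level in organoids. Of 11 genes, 10 were higher than in organoids (median 2.27), while 5 were lower and none higher than in tissue (median -0.39). Hspa1a, the inducible HSP70, was at 184.5 and 276.7 CPM in assembloids and 176.4 and 231.5 in tissue, against 3.17 and 3.08 in organoids (6.20 ± 0.33). Fosb was at 31.4 and 54.4 against 259.4 and 352.1 in tissue (-2.83 ± 0.34). Assembloids were dissociated with Liberase TL and TrypLE, and organoids with TrypLE alone, so culture and dissociation cannot be told apart here.

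**Figure D4:**
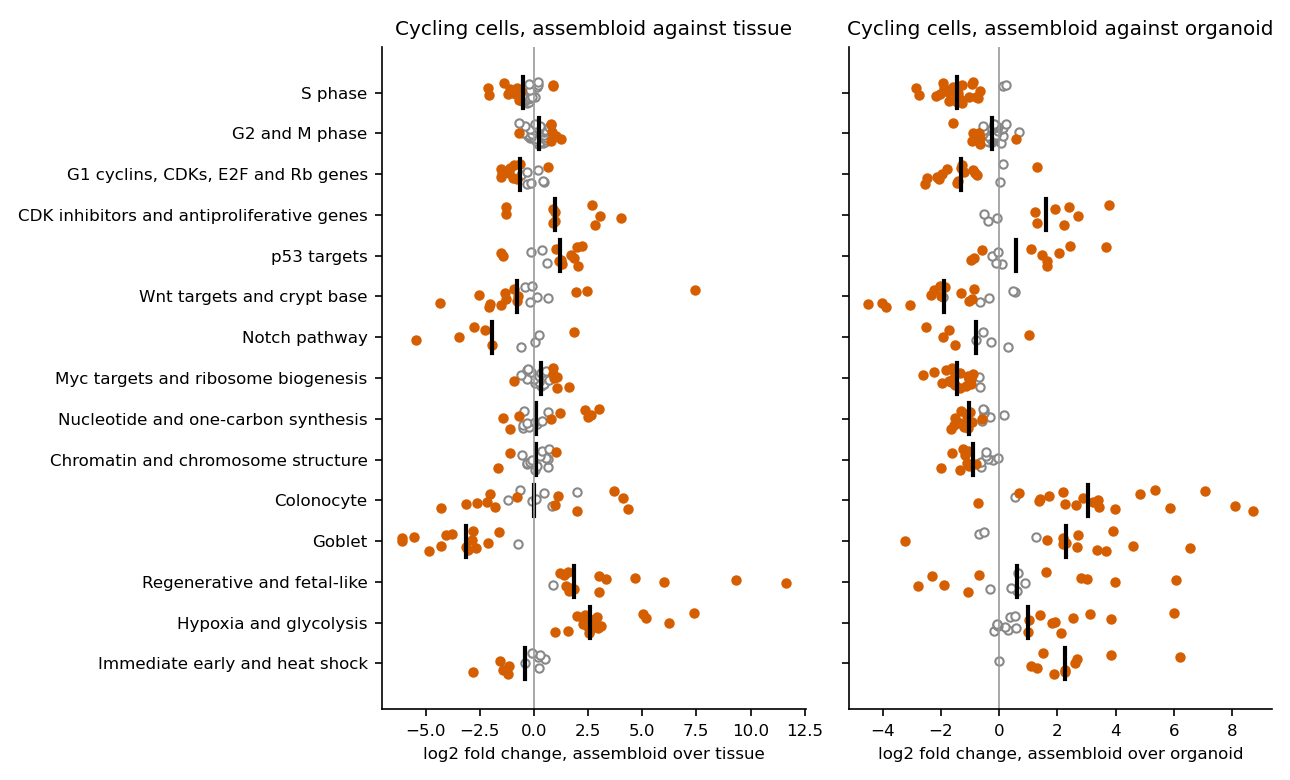
Log2 fold changes of the genes of 15 lists between cycling cells of assembloids and of tissue (left) or organoids (right). Each point is a gene, filled where the adjusted p of edgeR was under 0.05, and the black bar is the median of the list, which is -0.49 and -1.43 for S phase, 2.60 and 0.99 for hypoxia and glycolysis and -0.77 and -1.89 for the crypt base. Points beyond 7 rest on genes close to 0 in 1 group.

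By the rule for the largest changes, the genes highest against tissue were Sprr1a, Trp53cor1, Hepacam, Adm, Slc25a48 and Bnip3. Of these, Sprr1a, Trp53cor1, Hepacam and Adm met the limit on mean level only through the assembloids. Hepacam, a cell adhesion gene, was at 145.3 and 62.7 CPM against 3 UMIs in all cycling tissue cells, and no fold is given for it. Slc25a48, a mitochondrial carrier gene, was at 463.8 and 376.8 against 5.19 and 5.87 (6.26 ± 0.32, and 5.76 to 12.3 under the alternatives, with the highest value from thinned cells). The lowest were Mptx1, Sycn, Sult1a1, Ccn3, Gsdmc4 and Slc5a8. Mptx1, a mucosal pentraxin, had 2 UMIs in all cycling assembloid cells and 5491 and 7844 CPM in tissue. Sycn, a granule protein, was at 2.21 and 3.71 against 938.5 and 674.6 (-8.09 ± 0.40). Slc5a8, a transporter of short-chain fatty acids, was at 0.88 and 1.39 against 127.3 and 110.4 (-6.71 ± 0.32).

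Against organoids the highest were Lyz2, Atp2c2, Cx3cr1, Trp53cor1, Zg16 and Dmbt1. Lyz2 and Cx3cr1 are macrophage genes, and with the cells that held UMIs of other cell types left out Lyz2 was gone by construction. Lyz2 had 1 UMI in all cycling organoid cells, so no fold is given. Atp2c2, a secretory pathway calcium pump, was at 369.8 and 321.6 CPM against 1.55 and 1.84 (7.68 ± 0.30), and 70.6 and 72.3 in tissue. Dmbt1, a secreted scavenger receptor, was at 394.5 and 407.6 against 5.59 and 3.19, and 383.1 and 531.2 in tissue. The lowest were Smoc2, Lgr5, Cdh13, Dach1, Sorbs2 and Cdo1, with Cdh13, a cadherin, at 14.0 and 12.4 against 125.8 and 249.8 CPM (-3.83 ± 0.43).

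Of 7 BMP response genes 1 was higher and 4 lower than in tissue (median -0.83) and 2 were higher and 3 lower than in organoids (median -0.61), and of 12 cholesterol synthesis genes 2 were higher and 3 lower than in tissue and 3 lower than in organoids. Tuft cell genes, with 8 tested, were higher in 1 and lower in 1 against tissue and higher in 4 against organoids. Of all genes 23.2% were higher and 19.7% lower than in tissue, and 25.6% and 21% than in organoids. The counts given for cholesterol synthesis lay near these shares, and those of tuft cell genes against tissue lay below them.

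Between cycling and noncycling assembloid cells, after the S, late and histone genes were set aside, the rule named Fut9, Kif15, Sgo1, Pbk, Racgap1 and Smc2 for their rises. All but Fut9 have roles in mitosis or chromosomes and are close to the selection. Fut9, a fucosyltransferase, met the limit on mean level only through tissue and is given as a description, with 0.44 and 4.70 against 0.12 and 0.33 CPM in assembloids, beside 180.3 and 160.4 against 52.96 and 45.4 in tissue. The largest falls were Saa1 (38.9 and 15.7 against 271.8 and 135.4 CPM, -2.95 ± 0.31, not called by DESeq2 at an adjusted p of 0.145), Chgb, Pyy, Clca4a, Cyp2c55 and Car4. Saa1 is an acute phase gene, Chgb and Pyy are enteroendocrine genes, and Clca4a and Car4 belong to the colonocyte list.

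The step between the classes was compared with that in tissue and in organoids by a test of the difference itself. Against tissue 984 of 17333 genes had a higher log2 difference in assembloids (5.68%) and 559 a lower one (3.23%), so 63.8% of the calls were higher, and 48.7% with DESeq2 and its scaling. Against organoids 516 were higher (2.98%) and 1335 lower (7.7%). Car1 fell less from noncycling to cycling cells in assembloids than in tissue (2.42 ± 0.24, adjusted p = 0.00179), as did Krt20 (1.58 ± 0.24, adjusted p = 0.00833) and Cdkn1a (1.12 ± 0.14, adjusted p = 0.00404). The call of Car1 was lost at a mitochondrial limit of 5% (1.501, adjusted p = 0.0517), and that of Krt20 there and by DESeq2 (adjusted p = 0.106 and 0.241). Without tissue replicate 1 the calls of Krt20 and Cdkn1a were lost (adjusted p = 0.106 and 0.0665), and without tissue replicate 2 that of Krt20 (adjusted p = 0.108). Lgr5 rose less than in tissue (-1.27 ± 0.14, adjusted p = 0.0027), Cd44 rose less (-1.37 ± 0.13, adjusted p = 0.0016) and so did Pcna (-1.38 ± 0.14, adjusted p = 0.00202), the last not called without tissue replicate 1 (adjusted p = 0.0508). Against organoids, where Lgr5 hardly differed between the classes (147.2 and 280.1 against 126.3 and 211.8 CPM), it rose more in assembloids (1.23 ± 0.13, adjusted p = 0.00243). Ly6a and Ldha, both higher in cycling organoid cells, gave differences of -1.15 ± 0.12 and -0.89 ± 0.08 (adjusted p = 0.00208 and 0.00149). With thinned cells, of these 9 differences that of Car1 alone was called, and Pcna stood at -0.57 against tissue and Lgr5 at 0.65 against organoids, where it was also not called with cells matched in depth (adjusted p = 0.0662). The organoid noncycling class was small, with 251 and 360 cells, whereas the one chosen anew among thinned cells held 2149 and 1846. With the pairing of both classes within a library left out, 7 genes were called against tissue and 6 against organoids, and with thinned cells 49 and 28. Leaving out tissue replicate 1 or 2 left 99 and 204 calls against tissue, and leaving out assembloid replicate 1 or 2 gave 3764 and 3074 calls against organoids, while 1219 were left without tissue replicate 1. With the cells of both classes matched in depth within each library, 44.3% of the calls against tissue were higher, and 57.2% of those against organoids in place of 27.9%.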

How the data were processed

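The deposited counts were raw UMI counts per gene and cell barcode of 32285 genes, which the authors made with Cell Ranger (7.1.0 per the file headers of the 6 epithelial libraries, 6 per the labels) on mm10. Whether intronic reads were counted is not given in the sources used here. The members and gene lists were chosen with earlier results of these data known. UMIs were summed per library and class (3684128 to 150950088 for cycling cells) and tested with edgeR 4.0.16 (R 4.3.3) by its quasi-likelihood test with TMM scaling, its low-count filter and Benjamini-Hochberg adjustment at 0.05. Class differences were fitted on all 12 sums with a term per library, and cycling cells on 6 sums. The SE after ± was the size of the log2 fold change divided by the square root of the F statistic of that test. It is not a spread measured between libraries. Expression levels of single genes were not compared with one another. The sums of the S and late lists were compared within a cell, without correction for differences in capture between genes. Cells were thinned to 2000 UMIs with Python 3.11.15. No doublet caller was run, but cells above the 95th percentile of UMIs were left out as an alternative. DESeq2 1.42.0, other gates and filters and left-out libraries were the further alternatives.

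Named genes were a fixed core set, the 6 highest and 6 lowest changes per comparison (3 for differences of differences) among called genes of mean log2 CPM of at least 5 whose libraries did not overlap, and the 2 highest and 2 lowest members of each list described. Gate, mitochondrial, ribosomal, immunoglobulin and predicted genes were left out of the second, and phase and histone genes too between classes. On simulated data, 4-fold changes of 200 genes were recovered in 100% for the classes (16575 genes), 95.5% against tissue and 99% against organoids (16392 genes). False calls numbered 12, 8 and 6 in the same order. The simulation gave all groups the same mean levels, used a set spread in place of that of the data and changed only genes above a set level. It therefore does not give the power of the tests here. The 2 stromal libraries of the series were not used. Some list members are not reported here.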

Additional observations from a re-analysis of the deposited data

Results flagged for a closer look

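These 20 differences between the classes (log2, cycling over noncycling) were singled out because the difference itself differed between assembloids and another source in edgeR's test. Groups of 2 libraries were too small to look for a sample far from the others.

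Against tissue, the values already given were 2.42 for Car1, 1.58 for Krt20, 1.12 for Cdkn1a, -1.27 for Lgr5, -1.37 for Cd44 and -1.38 for Pcna. The rule for named genes added 6 others. Spink1, a trypsin inhibitor, was at 42.5 and 26.1 CPM in cycling and 47.3 and 58.1 in noncycling assembloid cells, whereas tissue had 66.9 and 62.2 against 827.3 and 830.6, which gave 3.04 (adjusted p = 0.00183). Trpm6, a magnesium channel, gave 2.86 (adjusted p = 0.00136; not called with thinned cells at 0.0572), with tissue at 20.9 and 13.2 against 125.1 and 114.6 CPM and assembloids at 10.4 and 10.8 against 9.52 and 10.8. Rep15 gave 2.80 (adjusted p = 0.014). Knl1, of the kinetochore, gave -3.23 (adjusted p = 0.0129), with noncycling cells of assembloids at 20 and 4.83 CPM and of tissue at 1.96 and 2.23. Mmp7, a protease, gave -3.96 (adjusted p = 0.0113), and Cdh13 gave -4.19 (adjusted p = 0.00207), with Mmp7 at 0.36 and 0.37 CPM and Cdh13 at 0.12 and 0.14 CPM in noncycling tissue cells. Without tissue replicate 1 the last 4 were not called (adjusted p = 0.156, 0.143, 0.115 and 0.136), and without tissue replicate 2 Rep15, Knl1 and Mmp7 were not (adjusted p = 0.128, 0.109 and 0.104). Rep15 and Mmp7 were not called with thinned cells either (adjusted p = 0.0683 and 0.469), and Cdh13 turned to 4.57 with them (adjusted p = 0.849). Rep15 was not called without the cells that held UMIs of other cell types (2.20, adjusted p = 0.0545), nor Knl1 at a mitochondrial limit of 5% (adjusted p = 0.0721).

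Against organoids, the values already given were 1.23 for Lgr5, -1.15 for Ly6a and -0.89 for Ldha. Krt20 gave 4.04 (adjusted p = 0.00288), standing at 0.07 and 0.12 CPM in cycling and 11.2 and 3.21 in noncycling organoid cells, and fell to 0.66 with thinned cells (adjusted p = 0.951). Chgb gave 4.80 (adjusted p = 0.0451), and was not called with thinned cells (1.42, adjusted p = 0.549) or by DESeq2 (adjusted p = 0.0912). Its call was also lost with a looser selection (2.85, adjusted p = 0.145), a stricter one (adjusted p = 0.0992) and cells matched in depth (adjusted p = 0.172). Without organoid replicate 1 or 2 Chgb gave 5.04 and 4.11. Ly6g gave -1.92 (adjusted p = 0.00252), being lower in cycling assembloid cells (164.7 and 141.4 against 380.4 and 378.1 CPM) and higher in cycling cells of organoid replicates 1 and 2 (537.5 and 496.3 against 271.1 and 422.4), and was not called with thinned cells (-0.93, adjusted p = 0.113). Apoe, which macrophages express, gave -1.84 (adjusted p = 0.0211) and was not called without the cells that held UMIs of other cell types (-0.90, adjusted p = 0.259). Nor was Apoe called with thinned cells (-1.27, adjusted p = 0.694) or a looser selection (-1.58, adjusted p = 0.423). Cells matched in depth (adjusted p = 0.0638) and a mitochondrial limit of 5% (adjusted p = 0.0665) lost the call too. Without organoid replicate 1 or 2 the value was -2.06 and -1.84. Hist2h2aa1 gave -2.50 (adjusted p = 0.0036), a value that is uncertain because Hist2h2aa2 is a near-identical copy.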

How the results depend on the processing

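Of 1925 values of named genes under an alternative, 1804 kept their side of the threshold, 15 gained a call and the others but 1 lost it. Values called under neither setting could change sign, as Ccnb1 did in cycling cells against tissue (-0.37 to 0.38). The 1 called difference that reversed was that of Cdh13 between the class differences of assembloids and tissue, at 4.57 with thinned cells (adjusted p = 0.849). In the order of classes in assembloids, cycling cells against tissue and against organoids, and class differences against tissue and against organoids, 6384, 7069, 7664, 1543 and 1851 genes were called. Thinned cells gave 2194, 2061, 2579, 49 and 28, and leaving out a library 5417 to 6567, 3288 to 7101, 5275 to 7208, 99 to 2303 and 1219 to 3764. Cells matched in depth gave 4618 calls for cycling cells against organoids and 1098 for the last comparison, a mitochondrial limit of 5% gave 583 and 988 for the last pair, and no filter on low counts 2790 for the last. Without the replicate block that a library term makes for its 2 classes, the counts were 1729 for the classes and 7 and 6 for the class differences, and 28 of 38 named gene results lost their call. With the replicate number as a block between groups they were 7014 against tissue and 7606 against organoids. These numbers pair nothing by the labels, and deviations of libraries with the same number correlated at 0.114, 0.147 and -0.0983 over 10338 genes. The mean share of cycling cells was 13.81%, 63.87% and 7.90% in assembloids, organoids and tissue. It was 25.3%, 78% and 12.7% with 1 UMI of both genes asked for and 6.76%, 19.2% and 3.48% with thinned cells, and 7.26%, 47.3% and 5.41% with 4 UMIs asked for, where the libraries of assembloids and tissue overlapped. The higher calls between the classes were 54.3% of all, and 39.8% with thinned cells. The cause of these changes was not tested. The noncycling class without its collagen limit was chosen as an alternative after seeing the data, and gave 7067 calls between the classes. Where a library was left out, the remaining one of its group was assumed to vary like the other groups. The cycling tissue sums, of 236 and 168 cells, were the smallest.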
